A study of Mus musculus with 4 samples.

Results

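Excitatory neuron and cortical layer markers were followed in ribosome-bound RNA from prefrontal cortex of male mice of the Crh-IRES-Cre line, whose age the labels do not give. They are 32 of the 24100 genes in the count tables, chosen by symbol as genes shared by glutamatergic neurons of the cortex or typical of an upper or a deep cortical layer, and all 32 were found. In this line, cells that transcribe Crh, which encodes corticotropin-releasing hormone, also make Cre recombinase. Translating ribosome affinity purification (TRAP) captures EGFP-tagged polysomes with antibodies against EGFP and sequences the RNA that they carry. The groups were 3 immunopurified (IP) libraries, which hold the RNA of the captured polysomes, and 1 Input library, which the labels give as the Input fraction of the same tissue and line. Each library pooled 5 males, all animals were untreated controls of the same Cre line, and how the EGFP tag was brought into the cells is not given in the sources used here. The labels do not state if different animals went into each IP library or into the Input. The p-values therefore rest on the spread between these libraries, which may be technical.

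Glutamatergic neurons make up most neurons of the cortex. They load glutamate into synaptic vesicles by vesicular transporters, are specified by basic helix-loop-helix and homeobox factors of the dorsal forebrain, and carry a dense calcium and calmodulin signalling machinery in their spines. Within a column they differ by layer: upper-layer cells project within the cortex, layer 5 holds the cells that project to the brainstem and spinal cord, and layer 6 the cells that project to the thalamus. Cortical interneurons use GABA instead and come from the ventral forebrain. Some layer markers, such as Cux2 and Bcl11b, are also known from interneurons.

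Most of these markers lay below the Input on the captured polysomes, but only Nrn1 and Nrgn fell by the test across all genes. Of the 32 genes, 22 were below the Input in all 3 IP libraries, 1 (Rspo1) was above it in all 3, and 9 lay on both sides. Over all genes tested, the same held for 24.1% (every IP library lower) and 19.7% (every IP library higher). Every IP library was also lower for 9 of 10 astrocyte, 9 of 10 microglial and 7 of 10 oligodendrocyte markers. This held for 0 of 10 endothelial and 0 of 14 GABAergic markers. Lower levels in IP were thus not particular to excitatory and layer markers. The test, edgeR's quasi-likelihood F test with Benjamini-Hochberg adjustment, covered 31 of the 32 genes, since Nxph4 did not reach the filter on low counts. It called 2 of the 31 lower and 0 higher at an adjusted p under 0.05, where 0.0478% of all 14636 genes tested were called lower and 0.410% higher. At an unadjusted p under 0.05, 9 were lower and 0 higher, against 1.23% lower, 3.20% higher and 4.43% in either direction among all genes. The median log2 fold of the 31 was -0.92, and that of all genes tested was 0.083. A single library passes a gene through the filter, so a gene high in 1 group alone could enter the test. Emx1, Emx2 and Nptxr passed in 2 libraries each and the other 28 in all 4. IP and Input are fractions of the same tissue and line, so a level below the Input describes the captured RNA relative to that fraction. It does not measure a loss of cells or of RNA per cell, and these cannot be told apart here.

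The libraries held 23548375, 10031072 and 12150980 counts in IP 1, 2 and 3 and 14474529 counts in the Input. Levels are given in CPM, counts scaled to the library size times its TMM factor, and the error after each log2 fold is its SE. There was no replicate of the Input. A single count was worth 0.0436, 0.107 and 0.0862 CPM in the IP libraries and 0.0600 CPM in the Input. The driver gene Crh reached 501, 174 and 193 CPM in the IP libraries, against 1.32 CPM in the Input. Of 14 markers of GABAergic neurons 13 were above the Input in all 3 IP libraries, and their summed level was 6684 to 9554 CPM in IP and 906 CPM in the Input. Summed levels of 10 markers each were 1663 to 2872 CPM in IP and 2728 CPM in the Input for astrocytes, and 346 to 572 CPM in IP and 813 CPM in the Input for oligodendrocytes. They were 23.4 to 37.1 CPM in IP and 95.8 CPM in the Input for microglia, and 155 to 487 CPM in IP and 38.0 CPM in the Input for endothelium. The defining markers at 0 counts in at least 1 library were Opalin for oligodendrocytes and Tmem119, C1qa, Trem2 and Aif1 for microglia. Among markers that define excitatory neurons, the Input held 633 CPM of Slc17a7, 185 CPM of Neurod6, 215 CPM of Tbr1 and 4.02 CPM of Emx1.

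**Figure D1:**
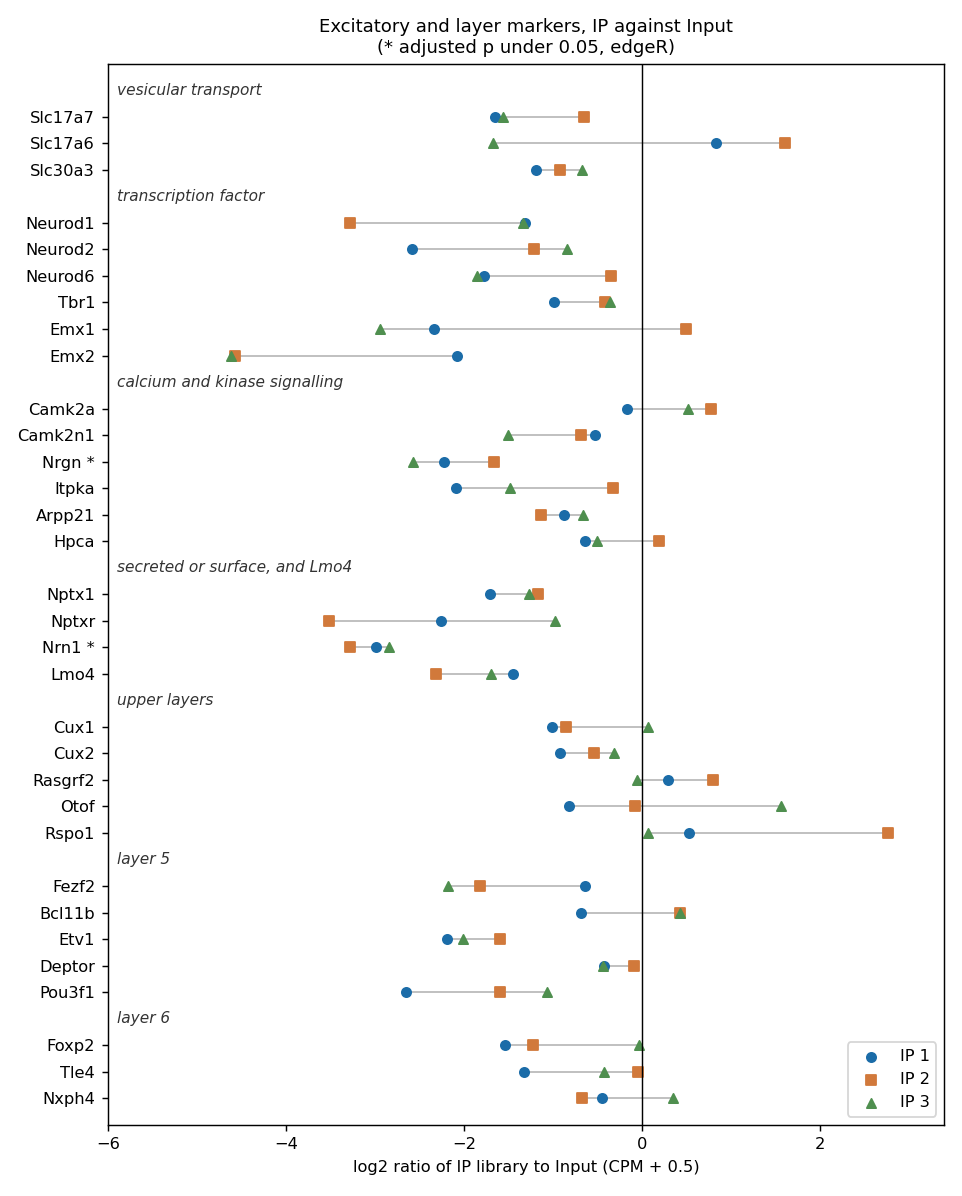
Log2 ratio of each IP library to the Input (x axis, 0.5 CPM added to both) for the 32 markers, grouped by role, with 1 point per IP library, a grey line for the range and the Input at 0. Points lie left of 0 in all 3 IP libraries for 22 genes, and the asterisks mark Nrgn and Nrn1, which passed an adjusted p under 0.05.

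Among the genes of vesicular transport, Slc17a7, which encodes the vesicular glutamate transporter VGLUT1 and is the most widely used marker of cortical glutamatergic neurons (chromosome 7, 45163949 to 45176142, GRCm38), was at 201, 403 and 214 CPM in IP 1, 2 and 3, against 633 CPM in the Input. All 3 IP libraries were thus below the Input, with IP 2 the highest of them. The log2 fold was -1.22 ± 0.41 (SE), with an unadjusted p of 0.00815 and an adjusted p of 0.535, so the difference did not pass. Slc30a3, the gene of ZnT3, which loads zinc into glutamatergic vesicles, was at 31.1, 37.4 and 44.6 CPM in IP and 71.4 CPM in the Input, again below the Input in all 3. Slc17a6, the gene of VGLUT2, which is known mainly from thalamic and other subcortical neurons, was at 20.4, 35.3 and 3.19 CPM in IP, against 11.3 CPM in the Input. It lay above the Input in IP 1 and IP 2 and below it in IP 3, an 11.1-fold range among the IP libraries. Its log2 fold of 0.80 ± 1.23 was 0.068 without IP 2.

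All 6 transcription factors of the excitatory lineage had log2 folds below 0, and 5 of them were below the Input in every IP library. Tbr1, a T-box factor needed for deep-layer identity (chromosome 2, 61802930 to 61814114), had the highest CPM of the 6 in the Input and the log2 fold nearest to 0, at 108, 161 and 167 CPM in IP and 215 CPM in the Input. Its log2 fold was -0.56 ± 0.46, not past the threshold. Neurod2, a basic helix-loop-helix activator of mature pyramidal neurons, was at 20.7, 54.4 and 70.3 CPM in IP and 127 CPM in the Input, a log2 fold of -1.39 ± 0.65 (unadjusted p = 0.0464, not past the adjusted threshold). Its paralog Neurod6 was at 53.7, 145 and 50.8 CPM in IP and 185 CPM in the Input. The IP library nearest to the Input thus differed between these paralogs, IP 3 for Neurod2 and IP 2 for Neurod6. Neurod1, an earlier factor of the same family, was at 10.3, 2.25 and 10.1 CPM in IP and 26.2 CPM in the Input. Other annotated genes cover 13.01% of the exon bases of Neurod1.

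The homeobox genes of the dorsal forebrain were sparse. Emx1 had 9, 55 and 1 counts in IP 1, 2 and 3, or 0.392, 5.88 and 0.0862 CPM, against 67 counts or 4.02 CPM in the Input. IP 2 was above the Input and the other two IP libraries below it. Its log2 fold of -0.93 ± 2.24 was -3.99 without IP 2. Emx2 had 67, 1 and 1 counts in IP, or 2.92, 0.107 and 0.0862 CPM, against 232 counts or 13.9 CPM in the Input. Its log2 fold, -3.70 ± 1.82 (unadjusted p = 0.0570), was the lowest of the 31. Without IP 1, which holds nearly all its IP counts, it was -7.06 (adjusted p = 0.122). Of the exon bases of Emx2, 8.79% lie under the antisense gene Emx2os.

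Of the 6 genes of calcium and kinase signalling, 1 (Nrgn) fell and the other five did not pass, while every IP library was lower than the Input for 4 of the 6 and 2 were mixed. Nrgn, the gene of neurogranin, a postsynaptic protein that binds calmodulin (Entrez 64011, chromosome 9, 37544492 to 37552904, protein coding), was at 132, 194 and 103 CPM in IP 1, 2 and 3, against 616 CPM in the Input. All 3 IP libraries lay well below the Input, the highest of them at 1.88 times the lowest. Nrgn fell by 2.11 on the log2 scale (SE 0.40, adjusted p = 0.0141), and its adjusted p ran from 5.73e-06 to 0.0173 over the 12 alternatives. Camk2a, the gene of the alpha subunit of the calcium/calmodulin-dependent kinase CaMKII (chromosome 18, 60925618 to 60988152), was at 2589.8, 4976 and 4160.3 CPM in IP and 2902 CPM in the Input. Camk2a was therefore below the Input in IP 1 and above it in IP 2 and IP 3, a log2 fold of 0.43 ± 0.34, not past the threshold.

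Camk2n1, an inhibitor of CaMKII and the most abundant of these genes in the Input by CPM (chromosome 4, 138454314 to 138460123), was at 2041, 1832 and 1037 CPM in IP and 2942 CPM in the Input. The log2 fold was -0.85 ± 0.34 (unadjusted p = 0.0219, adjusted p = 0.867). Without IP 1, the highest of the IP libraries, Camk2n1 passed (log2 fold -1.06, adjusted p = 0.000759). Arpp21, which encodes an RNA-binding phosphoprotein regulated by cyclic AMP, was at 354, 296 and 410 CPM in IP and 649.8 CPM in the Input, a log2 fold of -0.88 ± 0.36 (unadjusted p = 0.0256, adjusted p = 0.903). Itpka, a kinase of inositol trisphosphate found in dendritic spines, was at 14.3, 49.6 and 22.0 CPM in IP and 62.3 CPM in the Input. Both genes were below the Input in all 3 IP libraries. Hpca, the gene of the calcium sensor hippocalcin, was at 354, 633 and 389 CPM in IP and 554 CPM in the Input, with IP 2 above the Input and the others below.

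**Figure D2:**
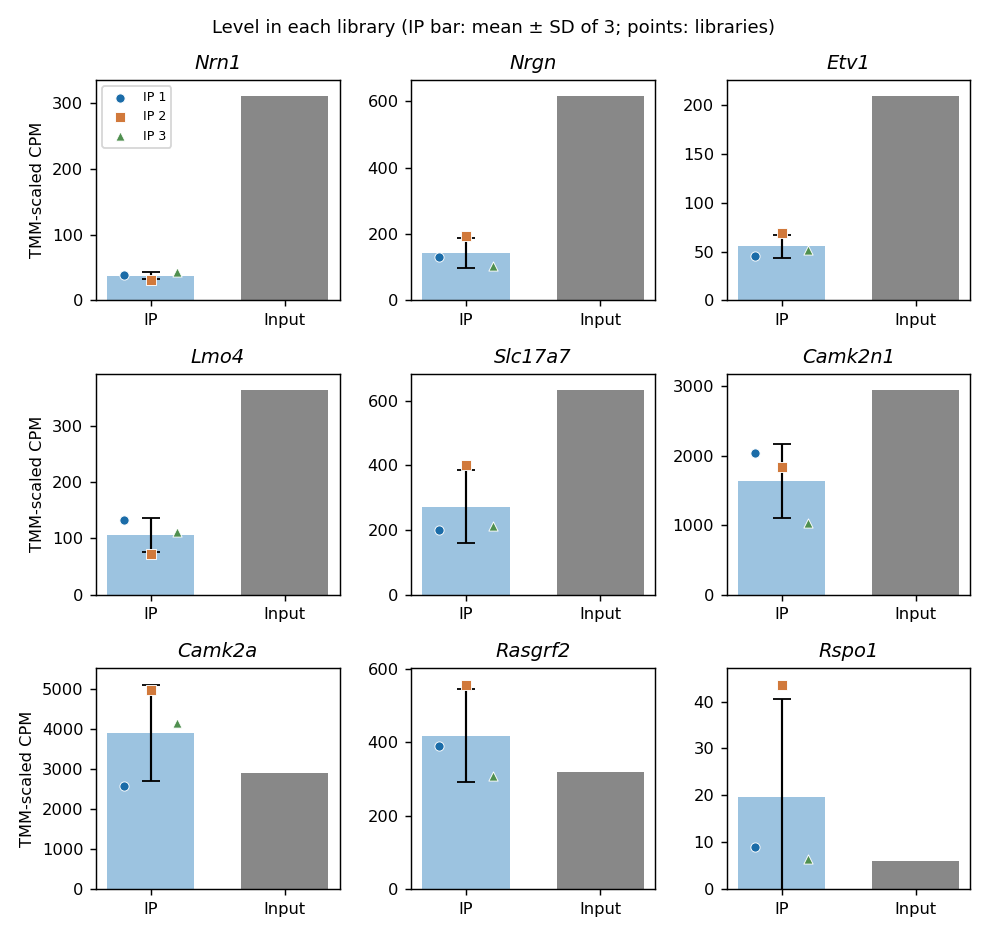
TMM-scaled CPM (y axis, each panel from 0) of 9 markers, with a blue bar and black error bar for the mean ± SD of the 3 IP libraries, points for IP 1, 2 and 3, and a grey bar for the single Input. Nrn1 and Nrgn stand well below the Input in every IP library, while Camk2a, Rasgrf2 and Rspo1 have IP libraries at or above it.

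The promoters below show, from RefSeq on GRCm38.p6, 250 bases before to 50 after the annotated start of a marker that fell (Nrgn), of the standard marker that did not pass (Slc17a7) and of a marker near or above the Input (Rasgrf2, an exchange factor for Ras). Capitals mark each E-box, CANNTG, the sequence bound by Neurod factors and other basic helix-loop-helix proteins, which reads as an E-box on both strands.
Nrgn: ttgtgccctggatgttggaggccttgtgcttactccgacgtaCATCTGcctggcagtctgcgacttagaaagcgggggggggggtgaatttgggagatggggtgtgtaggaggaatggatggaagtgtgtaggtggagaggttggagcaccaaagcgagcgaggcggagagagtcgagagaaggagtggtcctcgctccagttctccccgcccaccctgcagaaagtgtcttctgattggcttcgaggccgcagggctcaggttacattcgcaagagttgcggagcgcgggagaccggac
Slc17a7: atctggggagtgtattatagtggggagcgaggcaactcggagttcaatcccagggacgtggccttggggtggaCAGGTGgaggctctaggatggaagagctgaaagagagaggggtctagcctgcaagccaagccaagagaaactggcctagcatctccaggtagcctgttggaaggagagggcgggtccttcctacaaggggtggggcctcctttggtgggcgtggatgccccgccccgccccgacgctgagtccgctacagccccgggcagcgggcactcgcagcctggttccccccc
Rasgrf2: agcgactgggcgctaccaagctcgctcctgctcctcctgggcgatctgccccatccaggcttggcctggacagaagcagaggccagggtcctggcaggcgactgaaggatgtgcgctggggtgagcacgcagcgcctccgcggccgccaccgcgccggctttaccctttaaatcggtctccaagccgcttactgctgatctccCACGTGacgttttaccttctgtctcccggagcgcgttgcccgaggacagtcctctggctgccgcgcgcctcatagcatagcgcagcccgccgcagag
The Nrgn window (chr9:37552696-37552995, minus strand) has CATCTG beginning 208 bases before the start, the Slc17a7 window (chr7:45163671-45163970, plus strand) CAGGTG 177 bases before it, and the Rasgrf2 window (chr13:92131779-92132078, minus strand) CACGTG 47 bases before it. These distances are from the RefSeq starts. The GENCODE M21 bounds printed for these genes begin at other bases, so distances from those would differ. Windows were given for 22 of the 32 genes, 39 windows in all, some of which overlap. An E-box was in 27 of the 39 windows, against 72.3% of all 32851 windows. The form CAGATG or its reverse complement CATCTG, which are both within CANNTG, was in 8 of the 39, against 17.2% of all windows. These matches describe letters in the windows, and no binding was measured.

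The secreted and surface proteins, with the cofactor gene Lmo4, were all 4 lower than the Input in every IP library, and 1 of them fell. Nrn1, the gene of neuritin, a membrane-anchored protein that promotes neurite growth (Entrez 68404, chromosome 13, 36725361 to 36735131, protein coding), was at 38.7, 31.5 and 42.9 CPM in IP, against 311 CPM in the Input. The IP libraries lay within 1.36-fold of each other. Nrn1 fell by 3.04 on the log2 scale (SE 0.48, adjusted p = 0.00225) and passed under all 12 alternatives, with adjusted p from 2.77e-07 to 0.00607. Of its exon bases 22.28% are shared with Fars2 on the opposite strand, a gene at 4.01, 5.99 and 2.67 CPM in IP and 6.54 CPM in the Input.

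Lmo4, a LIM-only transcription cofactor of cortical projection neurons that other cells also express (chromosome 3, 144188530 to 144205220), was at 133, 72.7 and 112 CPM in IP and 363 CPM in the Input. Its log2 fold was -1.78 ± 0.44 (unadjusted p = 0.000756), and its adjusted p of 0.120 did not pass. The adjusted p was 0.0497 with DESeq2, 0.0327 with library totals alone and 0.000680 without IP 1, and over the 12 alternatives it ran up to 0.200. Nptx1, the gene of a secreted pentraxin that gathers AMPA receptors at synapses, was at 63.1, 92.4 and 85.9 CPM in IP and 207 CPM in the Input, a log2 fold of -1.37 ± 0.49 (unadjusted p = 0.0111, adjusted p = 0.628). Nptxr, its membrane-bound relative, had 16, 0 and 28 counts in IP 1, 2 and 3 and 87 counts in the Input. At 0 counts IP 2 allowed up to 0.321 CPM, against 5.22 CPM measured in the Input, and 17.21% of the exon bases of Nptxr are shared with Npcd on the same strand.

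Of the 5 markers of the upper layers, 1 was below the Input in all 3 IP libraries, 1 above it in all 3 and 3 mixed, and none passed the test. Their median log2 ratio to the Input was -0.82, -0.08 and 0.06 in IP 1, 2 and 3. The highest by CPM in the Input, Rasgrf2 (chromosome 13, 91880400 to 92131656), was at 391, 557 and 307 CPM in IP and 319 CPM in the Input, a log2 fold of 0.39 ± 0.42, not past the threshold. IP 1 and IP 2 were above the Input and IP 3 just below it. Cux1, a homeobox gene of upper-layer identity, was at 93.6, 105 and 199 CPM in IP and 190 CPM in the Input, and its paralog Cux2 at 36.5, 47.6 and 55.8 CPM in IP and 69.3 CPM in the Input. In both paralogs IP 3 was the highest IP library, and for Cux1 it was above the Input. Otof, the gene of the vesicle protein otoferlin, was at 4.53, 7.91 and 25.9 CPM in IP and 8.40 CPM in the Input, and only IP 3 exceeded the Input. Its log2 fold of 0.60 ± 1.34 turned to -0.43 without IP 3. Rspo1, a secreted enhancer of Wnt signalling, was at 8.89, 43.6 and 6.29 CPM in IP and 5.997 CPM in the Input. Rspo1 in IP 3 was nearly level with the Input, on 73 and 100 counts, and its log2 fold of 1.71 ± 1.33 was 0.34 without IP 2.

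In layer 5, 4 of 5 markers were below the Input in all 3 IP libraries. Etv1, an ETS factor of layer 5 (chromosome 12, 38779380 to 38870484), was at 45.5, 68.9 and 51.6 CPM in IP, against 209 CPM in the Input. The highest of its 3 IP libraries was 1.51 times the lowest, against 1.36 times for Nrn1 and 1.88 times for Nrgn. The log2 fold was -1.92 ± 0.52 (unadjusted p = 0.00145, adjusted p = 0.189), and DESeq2 alone among the 12 alternatives called it (adjusted p = 0.0373). Fezf2, a zinc-finger factor that specifies neurons projecting to the spinal cord, was at 64.9, 28.2 and 22.0 CPM in IP and 101 CPM in the Input. Deptor, an inhibitor of mTOR signalling, was at 98.1, 123.3 and 97.1 CPM in IP and 132 CPM in the Input, close to the Input in each. Pou3f1, a POU-domain factor of the same layer, was at 2.62, 5.99 and 8.79 CPM in IP and 19.0 CPM in the Input. Bcl11b, the gene of CTIP2, which acts with Fezf2 in layer 5 and is also made by cortical interneurons, was the exception. It reached 55.2, 119.9 and 120.2 CPM in IP, against 89.2 CPM in the Input, below the Input in IP 1 and above it in IP 2 and IP 3. Its log2 fold of 0.14 ± 0.59 had no stable sign, turning to -0.08 with upper-quartile factors and -0.14 with library totals alone.

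In layer 6, Tle4, a corepressor of corticothalamic neurons (chromosome 19, 14448150 to 14598051), was at 30.0, 73.4 and 56.3 CPM in IP and 75.7 CPM in the Input, a log2 fold of -0.51 ± 0.67, not past the threshold. Foxp2, a forkhead factor of the same cells, was at 10.3, 12.8 and 30.1 CPM in IP and 30.7 CPM in the Input. Both were below the Input in all 3 IP libraries, Tle4 nearly level with it in IP 2 and Foxp2 nearly level in IP 3. Nxph4, a ligand of neurexins, had 2, 0 and 6 counts in IP and 5 counts in the Input, too few to compare.

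**Figure D3:**
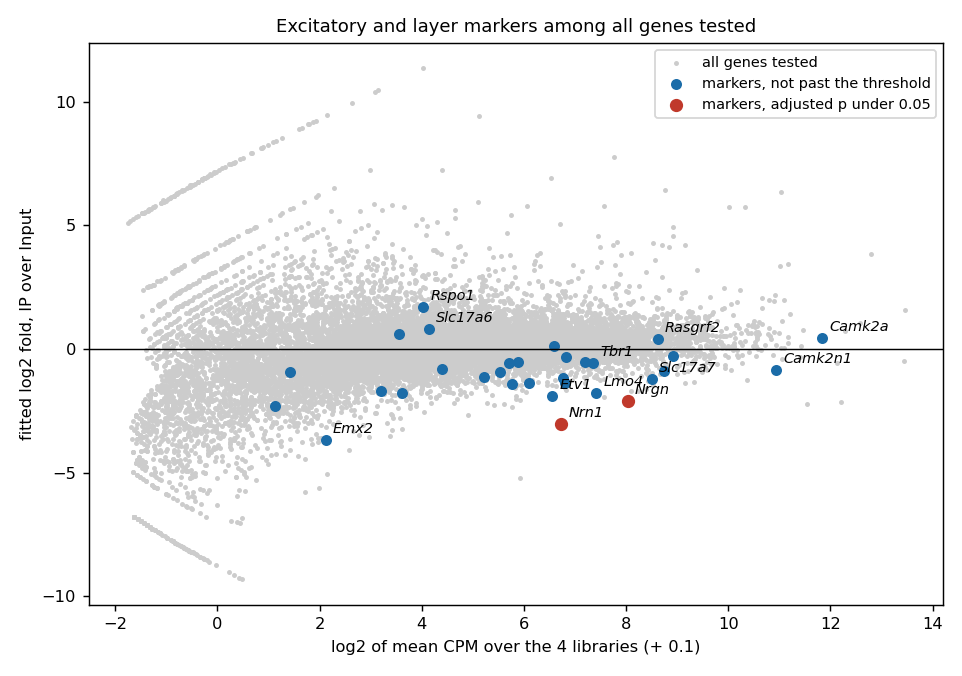
Fitted log2 fold of IP over Input (y axis) against the log2 of mean CPM over the 4 libraries (x axis, 0.1 added) for all genes tested (grey) and 31 markers (blue, not past the threshold; red, adjusted p under 0.05). Of the 31 markers 25 lie below 0, Camk2a, Rasgrf2, Rspo1, Slc17a6, Otof and Bcl11b lie above it, and Nrn1 and Nrgn are the markers past the threshold.

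Because a count ratio within a library does not depend on library scaling, each marker was also set against Slc17a7 in the same library. Of the 31 other markers, 10 had a higher ratio to Slc17a7 in all 3 IP libraries than in the Input, 4 had a lower one in all 3, and 17 were mixed. Over all other genes tested, 54.0% had a higher ratio to Slc17a7 in all 3 IP libraries and 6.03% a lower one. All these ratios share the level of Slc17a7 itself, which was below the Input in each IP library. With 3 IP libraries and 1 Input these ratios are a description without a test. The 10 were Tbr1, Camk2a, Hpca, Cux2, Rasgrf2, Otof, Rspo1, Bcl11b, Deptor and Tle4, so 4 of the 5 upper-layer markers were among them. Counts of Camk2a per count of Slc17a7 were 12.9, 12.4 and 19.5 in IP 1, 2 and 3 and 4.59 in the Input. Those of Rasgrf2 were 1.94, 1.38 and 1.44 in IP and 0.504 in the Input. Both ratios were at least 2.69 times that of the Input in each IP library. The 4 with lower ratios were Emx2, Nrgn, Nrn1 and Etv1. Counts of Nrgn per count of Slc17a7 were 0.655, 0.481 and 0.484 in IP and 0.973 in the Input, and those of Nrn1 were 0.192, 0.0783 and 0.201 in IP and 0.491 in the Input.

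**Figure D4:**
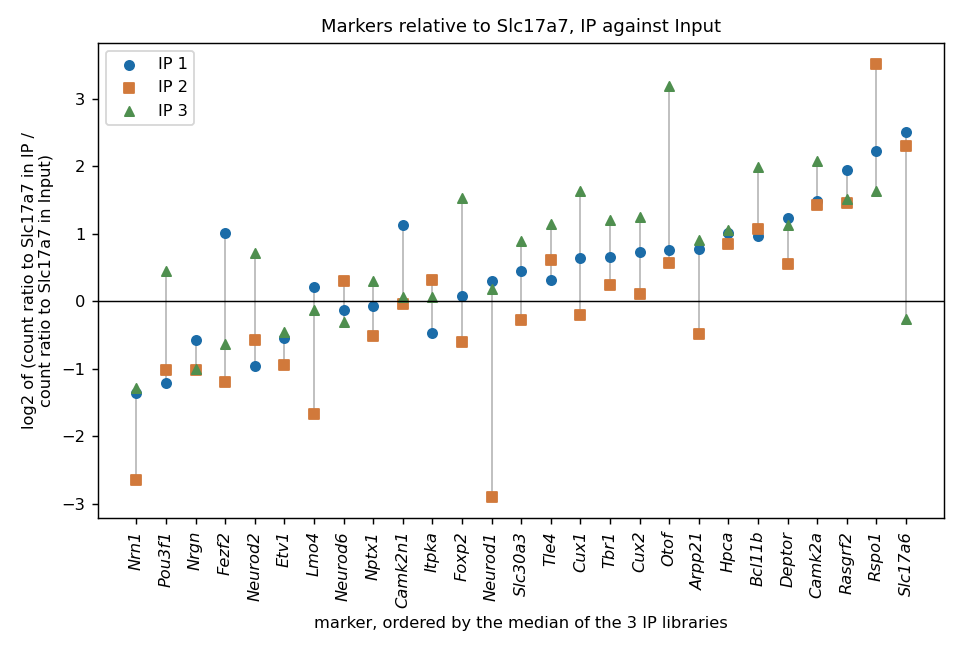
Log2 of the count ratio to Slc17a7 in each IP library divided by that in the Input (y axis) for 27 markers ordered by the median of the 3 IP libraries (x axis), with Emx1, Emx2, Nptxr and Nxph4 left out for low counts. Nrn1 and Nrgn lie below 0 in all 3 IP libraries, and Hpca, Bcl11b, Deptor, Camk2a, Rasgrf2 and Rspo1 above it in all 3.

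The IP libraries differed among themselves in these markers. IP 2 was the highest IP library for 14 of the 32 genes, IP 3 for 13 and IP 1 for 5, and the median log2 ratio to the Input over the 31 genes was -1.31, -0.68 and -0.97 in IP 1, 2 and 3. Summed over the 32 genes, the level was 7009.6, 10215 and 7905 CPM in IP 1, 2 and 3, against 11147 CPM in the Input. Camk2a and Camk2n1 made up most of this sum in each library, so it says little of the other markers. IP 2 was thus the highest IP library for this sum, and it was the lowest for the sum of the GABAergic markers, at 6684 CPM against 9554 CPM in IP 1 and 7690 CPM in IP 3. It was also highest for the sum of endothelial markers (487 CPM, with 155 CPM in IP 1 and 204 CPM in IP 3), which in IP 2 was mostly Slc2a1 (307 CPM). Of the 10 endothelial markers taken singly, 6 were highest in IP 2, 3 in IP 3 and 1 in IP 1. For the sum of astrocyte markers, which was mostly Slc1a2, IP 2 was again highest (2872 CPM, with 1663 CPM in IP 1 and 1848 CPM in IP 3). IP 2 was the library with the fewest counts. The part of these in the marker levels was not tested.

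Further lists of excitatory and layer genes gave a less uniform picture. Whether each listed gene is particular to excitatory neurons in this tissue was not tested. Of 20 further genes listed as shared by excitatory neurons, all 3 IP libraries were lower than the Input for 7 (35%) and higher for 4 (20%). Over all genes tested, these shares were 24.1% and 19.7%. By the test 1 of the 20 rose and 0 fell, where 0.410% of all genes were called higher and 0.0478% lower. The median log2 fold of the 20 was -0.30. The gene that rose was Pcp4l1, a relative of the calmodulin-binding protein PCP4, with 550 CPM, 519 CPM and 524 CPM in IP 1, 2 and 3 and 70.9 CPM in the Input (log2 fold 2.90 ± 0.45, adjusted p = 0.00206). The others highest in the Input by CPM were Mef2c, a MADS-box factor, at 1167, 1219 and 928 CPM in IP and 1304 CPM in the Input, and Chn1, a GTPase-activating protein for Rac, at 649.5, 566 and 708 CPM in IP and 1158 CPM in the Input. The next was Camk4, a calcium-dependent nuclear kinase, at 315, 621 and 389.8 CPM in IP and 727 CPM in the Input. By the mean of the IP libraries, Enc1 and Camk2b, which were named after their values were seen, came before Chn1 and Camk4. Enc1 was at 745, 918 and 777 CPM in IP and 637 CPM in the Input, and Camk2b was at 423, 723 and 975 CPM in IP and 657 CPM in the Input. Enc1 was thus above the Input in all 3 IP libraries and Camk2b in IP 2 and IP 3, and neither passed.

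Of 32 further layer genes, all 3 IP libraries were lower than the Input for 15 (46.9%) and higher for 8 (25%). Over all genes tested, these shares were 24.1% and 19.7%. Among the 31 tested, 2 rose and 0 fell, where 0.410% of all genes were called higher and 0.0478% lower. The median log2 fold of the 31 was -0.48. Thsd7a, which encodes a membrane protein with thrombospondin repeats, rose to 383, 246 and 241 CPM in IP, against 46.6 CPM in the Input (log2 fold 2.64 ± 0.52, adjusted p = 0.0194). Parm1, a mucin-like membrane protein, rose to 194, 189 and 213 CPM in IP, against 35.1 CPM in the Input (log2 fold 2.50 ± 0.54, adjusted p = 0.0445). Limma-voom (adjusted p = 0.0846 and 0.164) and the threshold of 0.01 each ended both calls. That of Parm1 also ended with library totals alone (0.0956), upper-quartile factors (0.0841) and a mean of at least 5 CPM (0.0587). The others highest in the Input by CPM were Foxp1 (154, 192 and 148 CPM in IP, 280 CPM in the Input), Rorb (113, 126 and 129 CPM in IP, 249.6 CPM in the Input) and Plcxd2 (317, 282 and 196 CPM in IP, 171 CPM in the Input), of which Plcxd2 alone was above the Input.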

How the data were processed

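The deposited tables hold unnormalized counts for each gene, 1 library per file, with an Entrez identifier and a symbol per the file headers. STAR 2.0.0e, HTSeq and the build mm10 are named per the submitters' processing notes, while the deposited tables' names also hold the word subread. The annotation, how reads with several map positions were treated and whether counting used strand are not given in the sources used here, so overlapping and antisense genes, and near-identical copies, may not be told apart. Counts were analysed in R 4.3.3 with edgeR 4.0.16: genes were kept by filterByExpr (minimum count 10), which left 14636 of 24100, libraries were scaled by TMM, and IP was compared with Input by the two-sided quasi-likelihood F test on all 4 libraries, with Benjamini-Hochberg adjustment over all genes tested and a threshold of 0.05. Only the 3 IP libraries inform the spread (residual degrees of freedom 2, prior 17.0), and the test takes the Input to be as variable. Each standard error was computed as the size of the log2 fold over the root of F. A level of 0 counts allows up to 3 counts, which covers counting error only. No pair of libraries was identical within sampling noise (chi-square per degree of freedom 75.45 or more). The 12 alternatives used DESeq2 1.42.0, limma-voom (limma 3.58.1), other scalings and filters, a threshold of 0.01, a robust prior, and each IP library left out. The scripts were tested on simulated data. Coordinates and exon lengths are from GENCODE M21 (GRCm38, the assembly of mm10), and promoters from RefSeq. Every marker is named with its values. Full statistics go to members past an adjusted or unadjusted p of 0.05, to the highest in the Input of each role and to Slc17a7. In the other lists, up to 4 called genes and the 3 others highest in the Input are named. Errors and folds beyond this rule were added after the values were seen. The members and lists were chosen with earlier results of these data known.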

Additional observations from a re-analysis of the deposited data

How the results depend on the processing

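The count of all genes called was 67, against 182 by DESeq2, 108 when no low-count filter was applied, 39 at an adjusted p under 0.01 and 90 to 210 with 1 IP library left out (210 without IP 1, 105 without IP 2). Of the markers, 2 were called, against 4 with DESeq2 (Nrn1, Nrgn, Lmo4 and Etv1), 1 at an adjusted p under 0.01 (Nrn1) and 2 to 4 with 1 IP library left out, the 4 without IP 1 being Nrn1, Nrgn, Lmo4 and Camk2n1. With library totals alone, with upper-quartile factors and without a low-count filter 3 were called, Lmo4 joining Nrn1 and Nrgn. Every marker called under any of the 12 alternatives was lower in IP. The median log2 fold of the markers ran from -1.20 to -0.82 over the alternatives, and the markers below the Input in all IP libraries used numbered 22 to 25. Library totals alone moved the median of all genes by -0.27, upper-quartile factors by -0.22, limma-voom by -0.23 and no low-count filter by -0.11. Relative to the median of all genes, the marker median was thus about as low under these scalings. The sign of Bcl11b turned under limma-voom, upper-quartile factors, library totals alone, and without IP 2 or IP 3, and that of Otof without IP 3. DESeq2 called 169 genes higher and 13 lower, against 60 and 7 by edgeR, 50 and 15 with library totals alone and 51 and 15 with upper-quartile factors. Crh was no longer called under limma-voom (adjusted p = 0.426). Low counts limit Emx1, Emx2, Nptxr and Nxph4, each with a library at 1 count or none. No paired analysis was possible because the single Input carries no number that links it to an IP library.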

Other observations

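Levels were also divided by the exon length of each gene in GENCODE M21. The annotation used for counting is not given, so the lengths over which reads were counted are not known. The order of genes with close values, such as Nrgn and Camk2a or Nrn1 and Slc17a7 in the Input, rests on the lengths used. On this scale Camk2n1 led in the Input at 662 CPM per kb. Nrgn followed at 424 CPM per kb, Camk2a at 389 CPM per kb and Hpca at 189.5 CPM per kb. In IP, Camk2a led with 347, 667 and 557 CPM per kb in IP 1, 2 and 3, then Camk2n1 with 459, 412 and 233 CPM per kb, Hpca with 121, 217 and 133 CPM per kb and Nrgn with 90.7, 133 and 71.2 CPM per kb. Camk2n1 was above Camk2a in IP 1 and below it in IP 2 and IP 3, while Hpca was above Nrgn in each IP library. Nrn1 was at 17.2, 14.0 and 19.1 CPM per kb in IP and 138 CPM per kb in the Input, where it stood above Slc17a7 at 117 CPM per kb. In IP Slc17a7 was at 37.3, 74.7 and 39.6 CPM per kb, above Nrn1 in each library. All 32 genes together, mostly Camk2a and Camk2n1, took 0.683%, 0.952% and 0.755% of the counts of IP 1, 2 and 3. They took 1.28% of the counts of the Input.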
